A study of Mus musculus with 9 samples.

Results

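The genes described here code for the enzymes of the Golgi apparatus that build and finish sugar chains on proteins and lipids. They were chosen by the start of the gene symbol (B3gal, B3gnt, B4gal, St3gal, St6gal, St8sia, Galnt, Mgat, Fut, Gcnt, Ext, Chst, and the heparan sulfate sulfotransferases Hs2st, Hs3st and Hs6st), with B4galt1, the catalytic part of lactose synthase, left out. The rule found 56 genes on 65 probe sets, among 8251 genes named on the array, and a gene's values are those of its brightest probe set. Of these, 51 are glycosyltransferases and 5 (Chst2, Chst3, Hs2st1, Hs3st1 and Hs3st3a1) are sulfotransferases, so the name glycosyltransferase does not hold for all of them. RNA of the whole No4 (inguinal) mammary gland of female C57BL/6J mice, an inbred wild type strain, was hybridized to 9 Affymetrix MG-U74Av2 arrays. Virgin mice at puberty (6 weeks of age) gave 3 arrays. Glands taken on day 14 of pregnancy gave 2, those on day 10 after birth (lactation) 2, and those on day 4 after the pups were weaned (involution) 2. Each array was a biological replicate of the wild type gland.

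Glycosyltransferases move a sugar from an activated donor, such as UDP-galactose, GDP-fucose or CMP-sialic acid, onto a growing chain, and sulfotransferases then decorate some chains with sulfate. N-glycans hang on asparagine and are trimmed and branched by the Mgat enzymes, mucin-type O-glycans are started on serine or threonine by the Galnt enzymes, and heparan sulfate chains of proteoglycans are polymerized by the Ext enzymes. Sialyltransferases and fucosyltransferases usually act last and cap the chains. In the lactating gland these enzymes finish secreted milk proteins, the mucins of the milk fat globule and free milk sugars. In the mouse, St6gal1 is transcribed from several promoters, and a form with its own start is known from the lactating mammary gland.

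Of the 56 genes, 47 had a mean signal above 20 in at least 1 stage and were tested. The other 9 (Fut1, Fut2, Fut9, Mgat3, St3gal2, St6galnac1, St6galnac6, St8sia1 and St8sia3) were not above 20 in any stage and are named only. Among the tested genes, B4galnt2, Galnt6 and Hs3st1 had a mean above 20 only in the stage where a comparison below calls them higher. They remain in the counts of called members. A signal is the linear intensity of a probe set after the arrays were scaled to equal medians, with no unit of its own, and signals of different probe sets are not set against each other. For tests, signals under 20 were raised to 20, the floor, and log2 was taken. Where every array of a stage lay under the floor, the fold is given only as a bound.

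Promoter windows were found for 38 of the 56 genes in RefSeq (GRCm38.p6), each covering 250 bases before to 50 after a transcript start. A few are shown because the results below turn on their genes: the 3 starts listed for St6gal1, then St3gal4 and Mgat2, whose signals were higher at lactation than at pregnancy, and B3galt2, whose signal was lower. Capitals mark 2 motifs, searched on both strands: the GAS element TTCNNNGAA, which STAT factors bind, and the GC box GGGCGG, which Sp factors bind and which reads CCGCCC when it lies on the other strand. Neighbouring GC boxes may overlap. All windows are written on the strand of the gene.
St6gal1 at chr16:23224490-23224789, plus strand: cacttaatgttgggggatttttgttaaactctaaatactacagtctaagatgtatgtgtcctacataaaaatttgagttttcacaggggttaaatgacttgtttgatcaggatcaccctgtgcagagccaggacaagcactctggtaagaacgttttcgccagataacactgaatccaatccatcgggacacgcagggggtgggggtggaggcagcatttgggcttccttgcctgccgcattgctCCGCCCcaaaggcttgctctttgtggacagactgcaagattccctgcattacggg
St6gal1 at chr16:23225771-23226070, plus strand: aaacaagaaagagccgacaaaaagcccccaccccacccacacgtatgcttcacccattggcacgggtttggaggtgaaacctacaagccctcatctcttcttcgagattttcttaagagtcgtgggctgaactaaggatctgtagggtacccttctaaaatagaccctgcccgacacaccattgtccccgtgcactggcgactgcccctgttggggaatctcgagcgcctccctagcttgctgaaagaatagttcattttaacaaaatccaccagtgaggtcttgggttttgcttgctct
St6gal1 at chr16:23290220-23290519, plus strand: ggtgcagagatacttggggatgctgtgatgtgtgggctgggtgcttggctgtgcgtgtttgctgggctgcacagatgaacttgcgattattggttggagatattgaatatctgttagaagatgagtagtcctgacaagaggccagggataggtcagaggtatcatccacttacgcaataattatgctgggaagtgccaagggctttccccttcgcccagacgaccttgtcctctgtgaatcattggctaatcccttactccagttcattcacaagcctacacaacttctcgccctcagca
St3gal4 at chr9:35116815-35117114, minus strand: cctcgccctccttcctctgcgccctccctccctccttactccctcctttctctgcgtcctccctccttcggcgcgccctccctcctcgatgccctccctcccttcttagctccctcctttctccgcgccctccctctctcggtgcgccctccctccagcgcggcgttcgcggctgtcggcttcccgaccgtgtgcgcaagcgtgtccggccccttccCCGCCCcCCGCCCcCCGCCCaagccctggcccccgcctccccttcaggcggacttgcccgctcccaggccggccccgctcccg
Mgat2 at chr12:69183908-69184207, plus strand: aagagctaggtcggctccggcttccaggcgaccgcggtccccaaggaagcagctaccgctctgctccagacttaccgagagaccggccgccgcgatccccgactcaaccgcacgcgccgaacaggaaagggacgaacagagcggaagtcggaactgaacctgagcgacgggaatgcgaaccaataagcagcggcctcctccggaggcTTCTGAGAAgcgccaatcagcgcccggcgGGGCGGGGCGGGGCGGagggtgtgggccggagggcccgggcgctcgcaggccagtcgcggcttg
B3galt2 at chr1:143640447-143640746, plus strand: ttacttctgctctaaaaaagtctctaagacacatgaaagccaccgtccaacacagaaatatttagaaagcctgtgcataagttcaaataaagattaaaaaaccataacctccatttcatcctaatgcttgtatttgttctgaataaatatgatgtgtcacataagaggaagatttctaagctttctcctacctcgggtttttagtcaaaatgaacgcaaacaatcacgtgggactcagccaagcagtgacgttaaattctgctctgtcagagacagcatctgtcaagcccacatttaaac

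The third of the St6gal1 starts lies downstream of the other two in the same gene, and which start the glands used was not measured. The first window held 1 GC box and the others none, St3gal4 held 3 and Mgat2 held 3 with 1 GAS match (TTCTGAGAA), while B3galt2 held neither motif. Over all 54 windows of the members, 31 (57.4%) held a GC box and 2 (3.7%) a GAS match, those of Mgat2 and Gcnt2, against 35.7% and 8.3% of all 32851 windows in the table. A GC box was in 13 of 20 windows (11 of 13 genes) of members higher at lactation, in 1 of 2 windows of members lower there and in 15 of 29 windows (15 of 20 genes) of members that did not pass. A GAS match was in 1 of the 20, 0 of the 2 and 1 of the 29 windows. A match is only a description of the letters.

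Over the 4 stages, 27 of the 47 members (57.4%) passed limma's moderated F test at an adjusted p of 0.05, against a background of 51.6% of all 9783 probe sets and 52.9% of the brightest probe sets of the named genes. The members as a group thus passed at a share near the background. Among the 27, the highest mean stood at lactation for 16, at puberty for 7 and at involution for 4, and at pregnancy for none of them. The lowest mean stood at lactation for 9, pregnancy 7, puberty 6 and involution 5. Over all probe sets that passed, the highest mean stood at lactation for 44.1%, puberty 17.7%, involution 21.8% and pregnancy 16.3%. Their lowest mean stood at lactation for 42.5%, pregnancy 15.2%, puberty 25.2% and involution 17%.

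**Figure D1:**
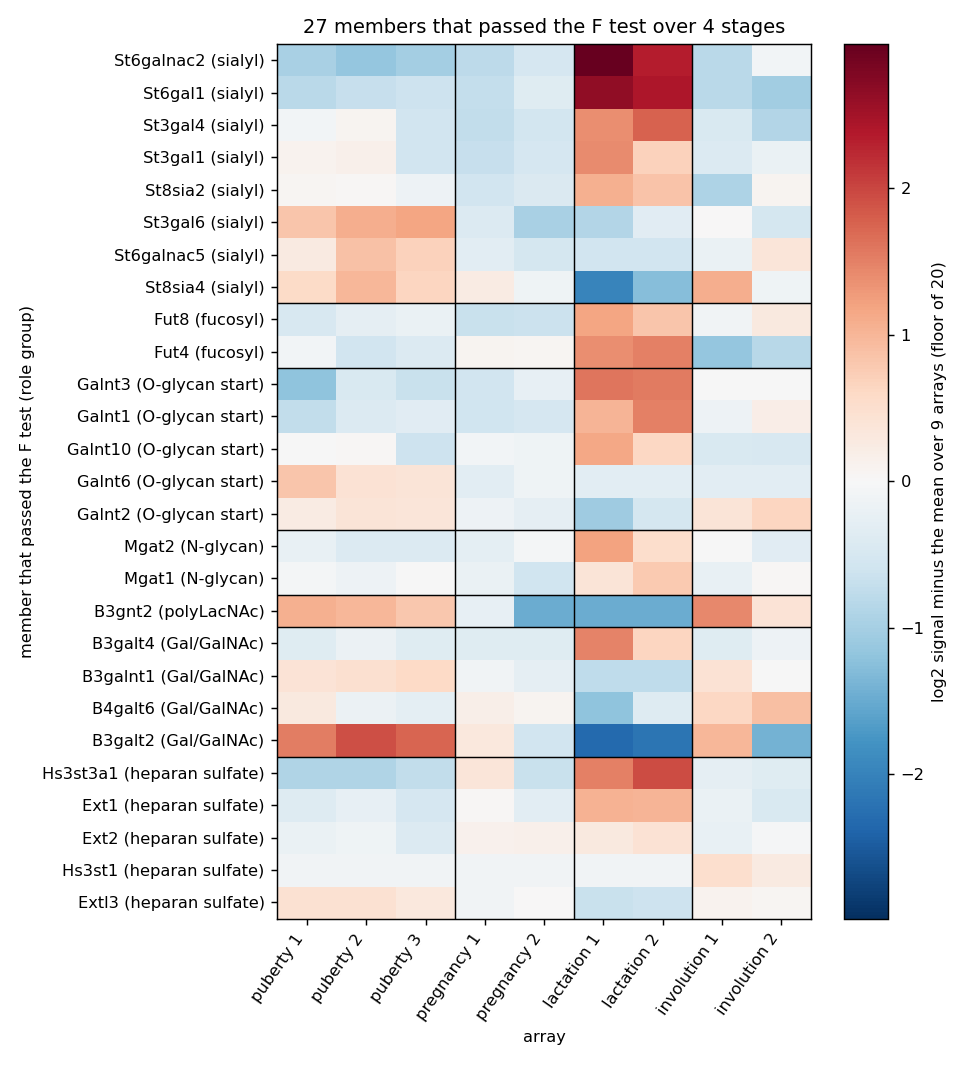
Each row is 1 of the 27 members past the F test, with its role group in brackets, and each column 1 of the 9 arrays in stage order. Colour is the log2 signal with the floor of 20, less the average of that gene on all 9 arrays (red above, blue below). Both lactation columns are red in the 16 genes with their highest mean there and blue in B3galt2, St8sia4 and B3gnt2.

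At lactation against pregnancy, 17 of the 47 members rose (36.2%) and 5 fell (10.6%), where 21.6% of all probe sets tested rose and 19.7% fell. The other 25 did not pass. On the deposited scale, without the scaling to equal medians, 16 rose and 8 fell. The median log2 change was 0.22 over the members and 0.07 over all probe sets, but 0.11 over the members and 0 over all on the deposited scale, and 0.14 and 0.01 with quantile normalization. By role, 6 of 13 tested sialyltransferases rose and 1 fell, 2 of 3 fucosyltransferases rose, 3 of 7 Galnt enzymes rose and 1 fell, both tested Mgat enzymes rose, 2 of 6 heparan sulfate enzymes rose and 1 fell, and 2 of 11 galactosyl and N-acetylgalactosaminyl transferases rose and 2 fell. None of the poly-N-acetyllactosamine enzymes (3) or the Chst enzymes (2) passed in this comparison. At involution against lactation, 8 members rose (17%), where 22.1% of all probe sets rose, and 18 fell (38.3%), where 23% fell. The median change was -0.13 over the members and -0.03 over all, and with quantile normalization -0.07 and -0.01. Both comparisons use the same 2 lactation arrays, so opposite signs in them are not independent.

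**Figure D2:**
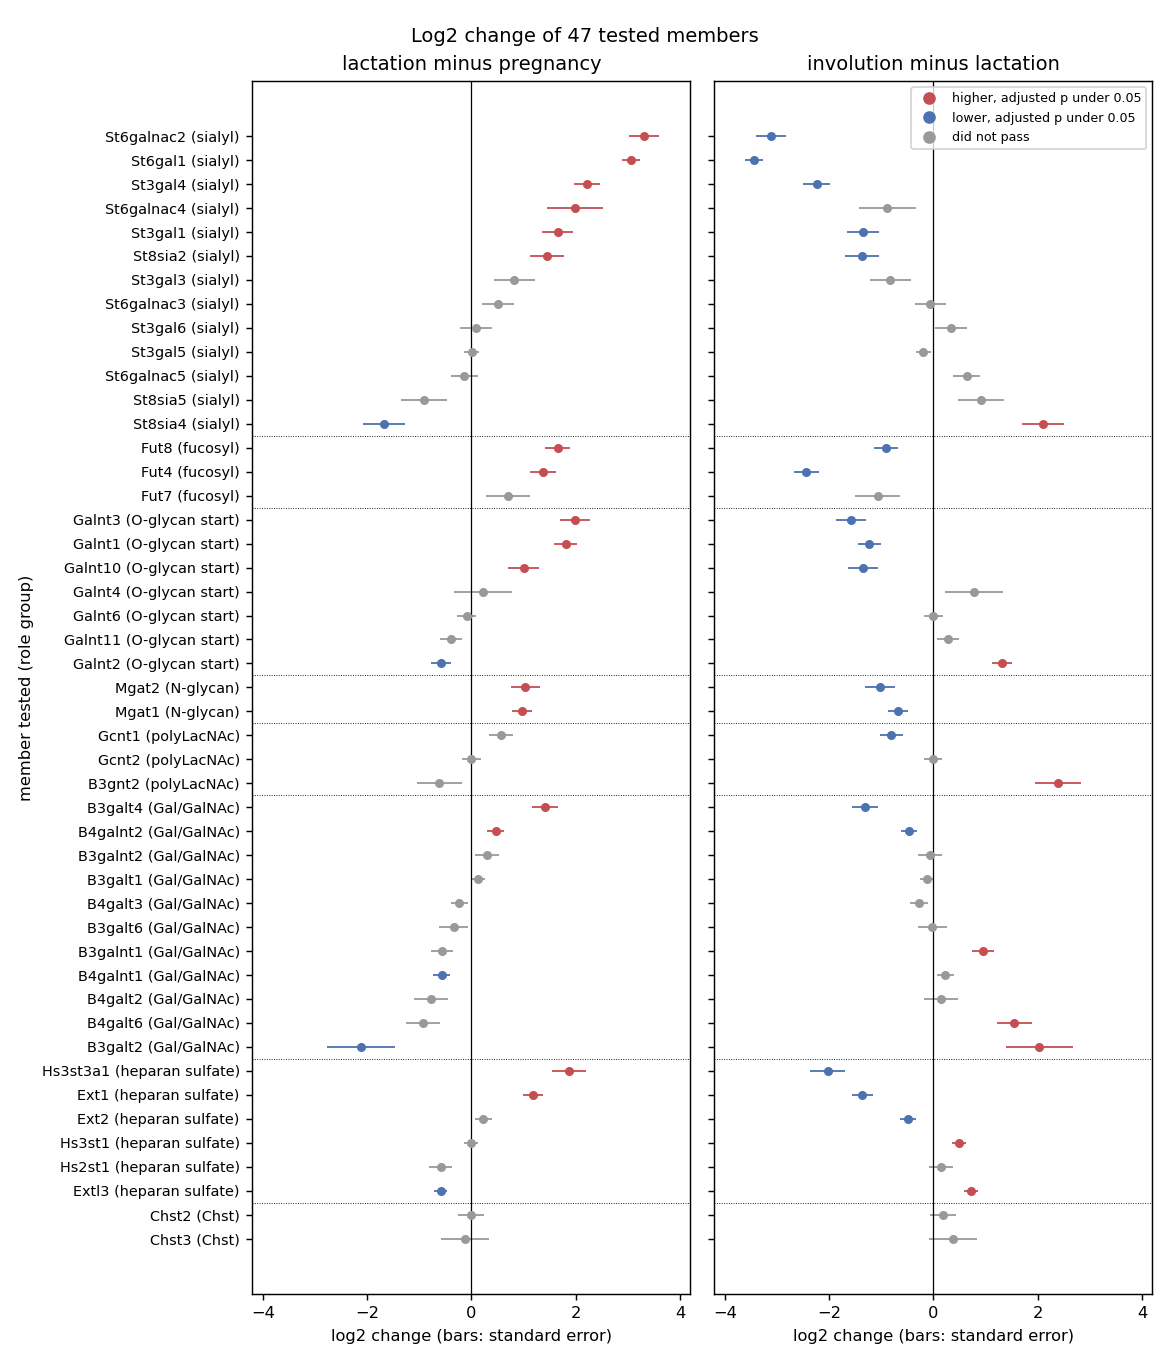
The 47 tested members run down the page by role group. Points are the log2 change, lactation minus pregnancy on the left and involution minus lactation on the right, and bars the standard error of limma's fit. Red points rose, blue points fell and grey points did not pass; St6galnac2 (3.31) and St6gal1 (3.06) lie farthest right in the left panel and B3galt2 (-2.12) farthest left.

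Sialyltransferases made up the largest role group, with 18 genes. Of these, 13 were tested and 8 passed the F test, as did 51.6% of all probe sets. St6gal1, which adds the terminal sialic acid to galactose on N-glycans, had signals of 162, 174 and 182 at puberty, 172 and 218 at pregnancy, 1746 and 1485 at lactation, and 161 and 136 at involution. Both lactation arrays lay far above all 7 others, which stayed within a narrow band. The log2 change was 3.06 (SE 0.17, adjusted p = 1.79e-05) at lactation against pregnancy, an 8.32-fold rise, and -3.44 (SE 0.17, adjusted p = 9.52e-06) at involution against lactation. The other St6gal1 probe set, dimmer throughout, gave 63.0, 74.5 and 51.1 at puberty, 47.0 and 31.4 at pregnancy, 653 and 610 at lactation, and 45.3 and 9.05 at involution. It had the same shape, with changes of 4.04 and -4.39 (adjusted p = 0.000159 and 7.4e-05).

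St6galnac2, which adds sialic acid to the first N-acetylgalactosamine of O-glycans, had 84.3, 74.2 and 81.4 at puberty, 96.7 and 116 at pregnancy, 1305 and 838 at lactation, and 93.9 and 156 at involution. Its lactation arrays differed more from each other than those of St6gal1 but lay above every other array. The rise was 9.88-fold (log2 3.31, SE 0.28, adjusted p = 8.46e-05), and the change at involution was -3.11 (SE 0.28, adjusted p = 8.26e-05). St3gal4, which caps galactose of N-acetyllactosamine chains, had 194, 217 and 137 at puberty, 122 and 141 at pregnancy, 535 and 696 at lactation, and 150 and 112 at involution. Again only lactation stood apart, 4.65-fold above pregnancy (log2 2.22, SE 0.26, adjusted p = 0.000329), with a change of -2.24 at involution (SE 0.26, adjusted p = 0.000232). The calls for these 3 genes held under every alternative that was run, including leaving out any single array.

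The other 3 sialyltransferases that rose at lactation had larger standard errors, 0.30 to 0.54 on the log2 scale. St6galnac4, which acts on O-glycans that already carry sialic acid, had 65.5, 55.5 and 16.3 at puberty, 9.80 and 26.3 at pregnancy, 112 and 74.1 at lactation, and 61.4 and 39.9 at involution. Its dimmer probe set, under the floor on 7 arrays, changed by 0.07 at lactation and did not pass (adjusted p = 0.784). On the brighter, lactation lay above pregnancy on both arrays (log2 1.99, SE 0.54, adjusted p = 0.0177). Yet puberty arrays 1 and 2 came near the lower lactation array. The gene did not pass the F test (adjusted p = 0.0622), nor its rise with no filter (adjusted p = 0.0649). Its rise at lactation was lost without pregnancy array 1 (adjusted p = 0.123), pregnancy array 2 (0.0699), lactation array 1 (0.156) or lactation array 2 (0.0731), with 0.00327 to 0.156 over its 20 alternatives. St3gal1, which sialylates the galactose of short O-glycans, averaged 157 ± 39.7 at puberty, 109 ± 10.2 at pregnancy, 351 ± 119 at lactation and 134 ± 13.9 at involution (SD, n = 3, 2, 2 and 2). St8sia2, a polysialyltransferase best known from the nervous system, averaged 61.1 ± 4.70, 44.1 ± 3.01, 120 ± 12.7 and 49.2 ± 23.3 in the same order. For both genes the lactation arrays were the highest, with log2 changes from pregnancy of 1.65 and 1.44 (adjusted p = 0.00291 and 0.00817) and to involution of -1.35 and -1.37 (adjusted p = 0.0067 and 0.00923). The fall of St3gal1 at involution was lost without lactation array 1 (0.0724) or involution array 1 (0.0608), with 0.00172 to 0.0724 over 21 alternatives. The rise of St8sia2 was lost without pregnancy array 1 (0.0591) or lactation array 1 (0.0643), with 0.00096 to 0.0643 over 21, and its fall without lactation array 1 (0.0701), with 0.00231 to 0.0701 over 21.

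Another set of sialyltransferases did not follow this shape. St8sia4, the second polysialyltransferase, had 148, 198 and 155 at puberty, 117 and 91.4 at pregnancy, 25.3 and 41.2 at lactation, and 210 and 91.6 at involution. Lactation was its lowest stage on both arrays, and the 2 involution arrays lay far apart. The change was -1.68 (SE 0.40, adjusted p = 0.0105) at lactation against pregnancy and 2.10 (SE 0.40, adjusted p = 0.00318) at involution against lactation. With a floor of 50 the change at lactation was -1.05 and did not pass (adjusted p = 0.109). The fall did not pass without pregnancy array 1 (0.0862) or lactation array 1 (0.111), with 0.00477 to 0.111 over 21 alternatives, and the rise at involution not without lactation array 1 (0.0517), with 0.00117 to 0.0517 over 21. St3gal6, which caps galactose on selectin ligands among others, had 157, 186 and 200 at puberty, 66.5 and 44.9 at pregnancy, 48.4 and 70.0 at lactation, and 89.1 and 61.0 at involution. Puberty stood above the 6 other arrays, which overlapped between stages. St6galnac5, which builds sialylated gangliosides, had 35.4, 53.9 and 48.0 at puberty, 23.7 and 20.5 at pregnancy, 7.68 and 19.0 at lactation, which is under the floor, and 25.7 and 37.9 at involution. Its puberty and involution arrays overlapped. St3gal3, St3gal5, St6galnac3 and St8sia5 passed neither the F test nor a comparison.

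**Figure D3:**
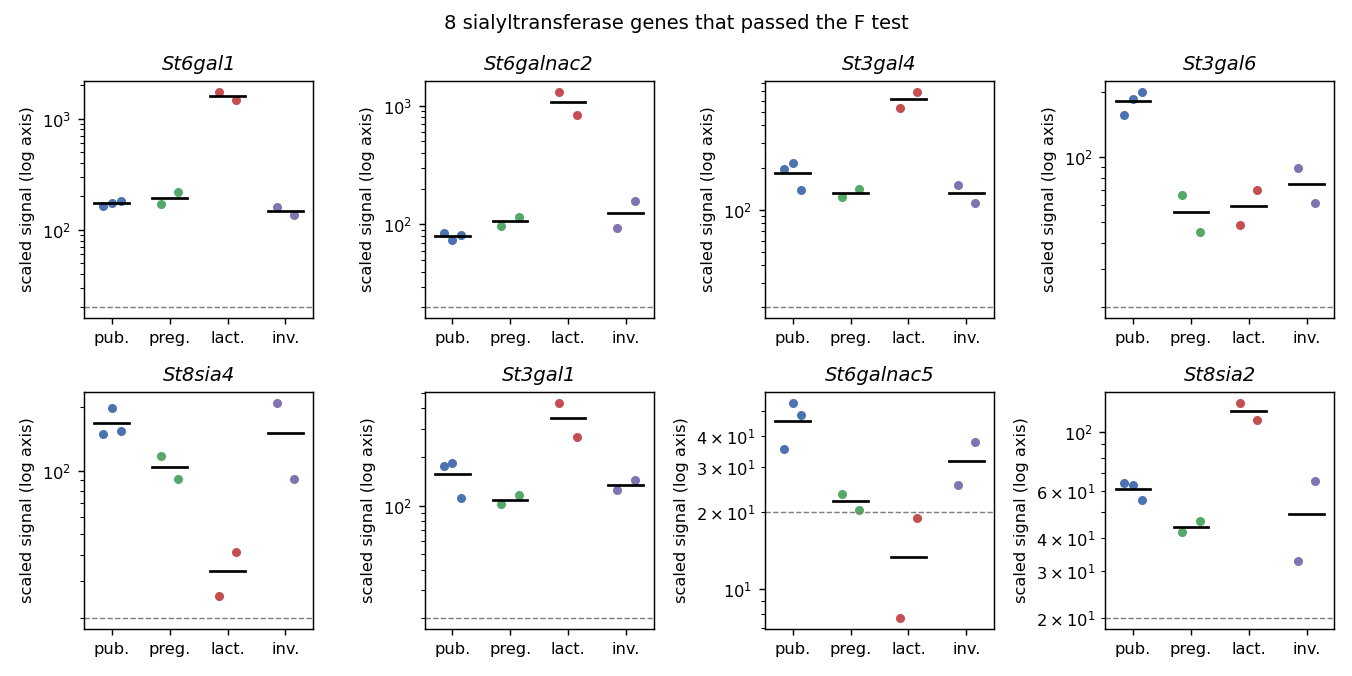
Scaled signal (log axis) of the 8 sialyltransferases past the F test at puberty (pub., 3 arrays), pregnancy (preg., 2), lactation (lact., 2) and involution (inv., 2). Points are arrays, black lines stage means and the dashed line the floor of 20. Lactation is the highest stage of St6gal1, St6galnac2, St3gal4, St3gal1 and St8sia2 and the lowest of St8sia4.

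Fucosyltransferases had 6 genes, of which 3 were tested. Fut4, which makes Lewis-type chains by fucosylating N-acetylglucosamine near the chain end, had 41.9, 30.0 and 33.5 at puberty, 46.9 and 46.4 at pregnancy, 116 and 125 at lactation, and 10.1 and 24.9 at involution. No array of another stage reached lactation, and the involution arrays were the lowest. The changes were 1.37 at lactation against pregnancy (SE 0.24, adjusted p = 0.00259) and -2.43 at involution against lactation (SE 0.24, adjusted p = 0.00012), the second with 1 involution array at the floor. Fut8, which adds the core fucose of N-glycans, had 62.9, 73.1 and 76.7 at puberty, 55.8 and 56.8 at pregnancy, 200 and 156 at lactation, and 82.3 and 108 at involution. It rose 3.14-fold at lactation (log2 1.65, SE 0.23, adjusted p = 0.000893), and its change at involution was smaller (-0.91, SE 0.23, adjusted p = 0.0135). That fall was lost without lactation array 1 (0.0599) or involution array 1 (0.0605), with 0.00746 to 0.0605 over 21 alternatives. Fut7, a fucosyltransferase of leukocyte selectin ligands, averaged 44.9 ± 29.3 at involution and 84.1 ± 11.1 at lactation (SD, n = 2 each), with an adjusted p of 0.0712.

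The Galnt enzymes compete to place the first N-acetylgalactosamine of mucin-type O-glycans. The F test was passed by 5 of the 7 tested and by 51.6% of all probe sets. Galnt1 had 133, 167 and 177 at puberty, 147 and 157 at pregnancy, 452 and 627 at lactation, and 201 and 256 at involution. Galnt3 had 28.5, 47.8 and 41.7 at puberty, 44.3 and 55.3 at pregnancy, 197 and 193 at lactation, and 65.2 and 64.8 at involution. In both genes lactation was above all other arrays, and involution lay above puberty and pregnancy without overlap. Galnt1 changed by 1.81 at lactation (SE 0.22, adjusted p = 0.000405) and by -1.23 at involution (SE 0.22, adjusted p = 0.00217). Galnt3 changed by 1.98 (SE 0.28, adjusted p = 0.000949) and by -1.59 (SE 0.28, adjusted p = 0.00232). A dimmer Galnt3 probe set also rose at lactation (0.90, adjusted p = 0.00382) and, unlike the brighter, already at pregnancy against puberty (adjusted p = 0.0441), where its puberty arrays were all under the floor. Galnt10 averaged 66.5 ± 15.4, 69.5 ± 1.32, 141 ± 35.4 and 54.3 ± 1.13 from puberty to involution (SD, n = 3, 2, 2 and 2), and its rise of 1.0 (adjusted p = 0.0236) was lost without pregnancy array 1 (0.0931), pregnancy array 2 (0.0986) or lactation array 1 (0.129), with 9.43e-05 to 0.129 over 21 alternatives.

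Galnt2 ran the other way. It had 385, 422 and 417 at puberty, 291 and 271 at pregnancy, 156 and 227 at lactation, and 426 and 510 at involution. Lactation was its lowest stage and involution its highest. The rise at involution against lactation was 2.48-fold (log2 1.31, SE 0.19, adjusted p = 0.000798). Lactation against pregnancy did not pass with a floor of 50 (adjusted p = 0.0679), no filter (0.0709), no trend (0.0569) or the replicate block (0.0524). The fall at lactation against pregnancy (-0.58, SE 0.19, adjusted p = 0.0389) was lost without any of 7 arrays, with adjusted p of 0.0554, 0.0608 and 0.0578 without puberty array 1, 2 or 3, 0.164 and 0.104 without pregnancy array 1 or 2, 0.134 without lactation array 1 and 0.0516 without involution array 1, and 0.00675 to 0.164 over 21 alternatives. Galnt6, best known from breast epithelium and its tumours, had 43.5, 33.3 and 32.1 at puberty, 8.0 and 22.7 at pregnancy, 11.8 and 14.3 at lactation, and 8.70 and 11.0 at involution. Only puberty was above the floor on all of its arrays. Galnt6 passed the filter only through puberty, so its fall at pregnancy is not independent of the filter. For Galnt4, the brightest probe set did not pass in any comparison, while its dimmer probe set rose at lactation (1.03, adjusted p = 0.00775), so the probe sets disagreed.

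Among the N-glycan branching enzymes, Mgat1, which opens the path to hybrid and complex N-glycans, had 355, 335 and 368 at puberty, 323 and 247 at pregnancy, 487 and 634 at lactation, and 316 and 381 at involution. Mgat2, which starts the next branch, had 60.0, 52.5 and 52.3 at puberty, 57.1 and 66.4 at pregnancy, 159 and 99.4 at lactation, and 69.2 and 55.2 at involution. In both, the lactation arrays were the 2 highest of 9, and involution overlapped puberty. Mgat1 rose by 0.98 at lactation (SE 0.19, adjusted p = 0.00389) and fell at involution (-0.68, SE 0.19, adjusted p = 0.0183), the fall being lost without lactation array 2 (0.107) or involution array 1 (0.11), with 0.00144 to 0.11 over 21 alternatives. The dimmer Mgat1 probe set gave 0.90 and -0.94 (adjusted p = 0.00435 and 0.0031). Mgat2 changed by 1.03 and -1.02 (SE 0.28 for both, adjusted p = 0.0176 and 0.0166). Its rise was lost without pregnancy array 1 (0.0995), pregnancy array 2 (0.0531) or lactation array 1 (0.0649), with 0.00797 to 0.0995 over 21 alternatives, and its fall without lactation array 1 (0.0621) or involution array 2 (0.0813), with 0.0072 to 0.0813 over 21.

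Of the enzymes that extend or branch N-acetyllactosamine, B3gnt2, the main maker of long poly-N-acetyllactosamine chains, had 117, 111 and 97.8 at puberty, 46.8 and 18.5 at pregnancy, 3.43 and 4.35 at lactation, and 150 and 73.8 at involution. Both lactation arrays lay under the floor, and involution overlapped puberty. Its signal was at least 5.25-fold higher at involution than at lactation (adjusted p = 0.00259). The dimmer B3gnt2 probe set went against this, with a change of -0.67 at involution that did not pass (adjusted p = 0.148). At lactation against pregnancy neither probe set passed. The brighter was at least 1.53-fold lower (adjusted p = 0.293). The dimmer changed by 0.84 (adjusted p = 0.082), with 49.3 and 53.1 at lactation above 5.40 and 40.7 at pregnancy. The direction of B3gnt2 at lactation thus rests on which probe set is read. Gcnt1, the branching enzyme of O-glycans, averaged 42.1 ± 0.85 at involution and 73.6 ± 3.31 at lactation (SD, n = 2 each). It fell (-0.81, SE 0.22, adjusted p = 0.018) but did not pass the F test (adjusted p = 0.0613). Gcnt2 was above the floor on 1 puberty array only.

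Of the galactosyl and N-acetylgalactosaminyl transferases, 7 of 11 did not pass at lactation against pregnancy, where 21.6% of all probe sets rose and 19.7% fell. B3galt2, which adds galactose to N-acetylglucosamine, had 289, 377 and 331 at puberty, 125 and 67.7 at pregnancy, 9.55 and 22.2 at lactation, and 199 and 37.4 at involution. Puberty was the highest and lactation the lowest stage, and the involution arrays spanned both sides of pregnancy. The changes of -2.12 at lactation (SE 0.65, adjusted p = 0.0292) and 2.03 at involution (SE 0.65, adjusted p = 0.0319) were computed with 1 lactation array at the floor. Neither passed with a floor of 50 (adjusted p = 0.399 and 0.315) or with no filter (0.0975 and 0.104). The fall was lost without pregnancy array 1 (0.199) or 2 (0.07) or lactation array 1 (0.179) or 2 (0.147), with 0.0022 to 0.399 over 21 alternatives. The rise was lost without pregnancy array 1 (0.0588) or 2 (0.0601), lactation array 1 (0.186) or 2 (0.154), or involution array 1, without which the change was 0.83 (0.148), with 0.00178 to 0.315 over 21.

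B3galt4, which adds galactose in ganglioside synthesis, had 16.3, 22.7 and 5.18 at puberty, 6.90 and 14.1 at pregnancy, 71.0 and 40.0 at lactation, and 17.4 and 23.0 at involution. It was above the floor on both arrays only at lactation, at least 2.66-fold higher than at pregnancy (adjusted p = 0.00273), and its change at involution was -1.31 (SE 0.25, adjusted p = 0.00336). With a floor of 50, neither change of B3galt4 passed (adjusted p = 0.273 and 0.262). With no floor, its change at involution did not pass (adjusted p = 0.132). B4galt6, which makes lactosylceramide, had 71.0, 51.4 and 46.9 at puberty, 65.1 and 61.5 at pregnancy, 25.1 and 44.1 at lactation, and 88.5 and 108 at involution. Involution was its highest stage, 2.93-fold above lactation (log2 1.55, SE 0.33, adjusted p = 0.00524). B3galnt1, which makes the globoside P antigen, had 44.3, 46.5 and 50.9 at puberty, 31.3 and 27.9 at pregnancy, 3.43 and 1.38 at lactation, and 45.2 and 33.4 at involution. Both lactation arrays lay under the floor, so involution was at least 1.94-fold higher than lactation (adjusted p = 0.00643).

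B4galnt1, the first enzyme of complex gangliosides, averaged 247 ± 5.60 at lactation and 369 ± 53.4 at pregnancy (SD, n = 2 each). Its fall (-0.57, adjusted p = 0.0225) was lost without pregnancy array 2 (0.123), lactation array 1 (0.0779) or lactation array 2 (0.0582), with 0.0124 to 0.123 over 21 alternatives. B4galnt2 was above the floor only on the lactation arrays (23.7 and 32.3), at least 1.38-fold over pregnancy (adjusted p = 0.0461), and this call was lost without any puberty or pregnancy array (0.0757, 0.0763 and 0.071 without puberty array 1, 2 or 3, and 0.122 and 0.121 without pregnancy array 1 or 2), with 4.1e-06 to 1 over 20 alternatives. The B4galnt2 call did not pass on the deposited scale (adjusted p = 0.0719) or with quantile normalization (0.133). B4galnt2 passed the filter only through lactation, so its call is not independent of the filter. Neither B4galnt1 nor B4galnt2 passed the F test (adjusted p = 0.0669 and 0.0696). The B4galt and B3galt members B3galt1, B3galt6, B4galt2 and B4galt3 and the gene B3galnt2 passed in no comparison. For comparison, the excluded B4galt1 averaged 3734 ± 897 at lactation and 723 ± 6.48 at pregnancy (SD, n = 2 each).

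Heparan sulfate chains had 6 members, 5 of them past the F test, which 51.6% of all probe sets passed. Ext1, a subunit of the chain polymerase, had 103, 114 and 95.4 at puberty, 138 and 107 at pregnancy, 278 and 271 at lactation, and 117 and 97.7 at involution. Lactation lay above all other arrays, which overlapped between stages, and the changes were 1.18 (SE 0.20, adjusted p = 0.00191) and -1.36 (SE 0.20, adjusted p = 0.000759). Ext2, its partner subunit, averaged 162 ± 15.2, 210 ± 2.31, 246 ± 19.1 and 175 ± 15.7 from puberty to involution (SD, n = 3, 2, 2 and 2), with a change of 0.23 at lactation that did not pass (adjusted p = 0.287). Its fall at involution (-0.49, adjusted p = 0.0344) was lost without puberty array 1 (0.0504) or 2 (0.0516), lactation array 2 (0.0733) or involution array 1 (0.0989), with 0.0149 to 0.0989 over 21 alternatives. Hs3st3a1, a late-acting glucosamine sulfotransferase, had 18.5, 12.5 and 22.7 at puberty, 48.2 and 23.8 at pregnancy, 106 and 144 at lactation, and 31.2 and 29.1 at involution. It rose 3.64-fold at lactation (log2 1.86, SE 0.33, adjusted p = 0.00253) and changed by -2.03 at involution (SE 0.33, adjusted p = 0.00139).

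Extl3, which adds the sugar that commits a chain to heparan sulfate, had 416, 421 and 379 at puberty, 284 and 307 at pregnancy, 194 and 198 at lactation, and 330 and 316 at involution. The 4 stages did not overlap, and replicates lay close together. Extl3 was the only member that passed in all 3 comparisons, with -0.46 at pregnancy, -0.59 at lactation (SE 0.13, adjusted p = 0.00666) and 0.72 at involution (SE 0.13, adjusted p = 0.00221). Hs3st1 was above the floor only at involution (30.6 and 25.8), at least 1.41-fold over lactation (adjusted p = 0.0169). The gene passed the filter only through involution, so this call is not independent of the filter. Hs2st1, Chst2 and Chst3 passed in no comparison.

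**Figure D4:**
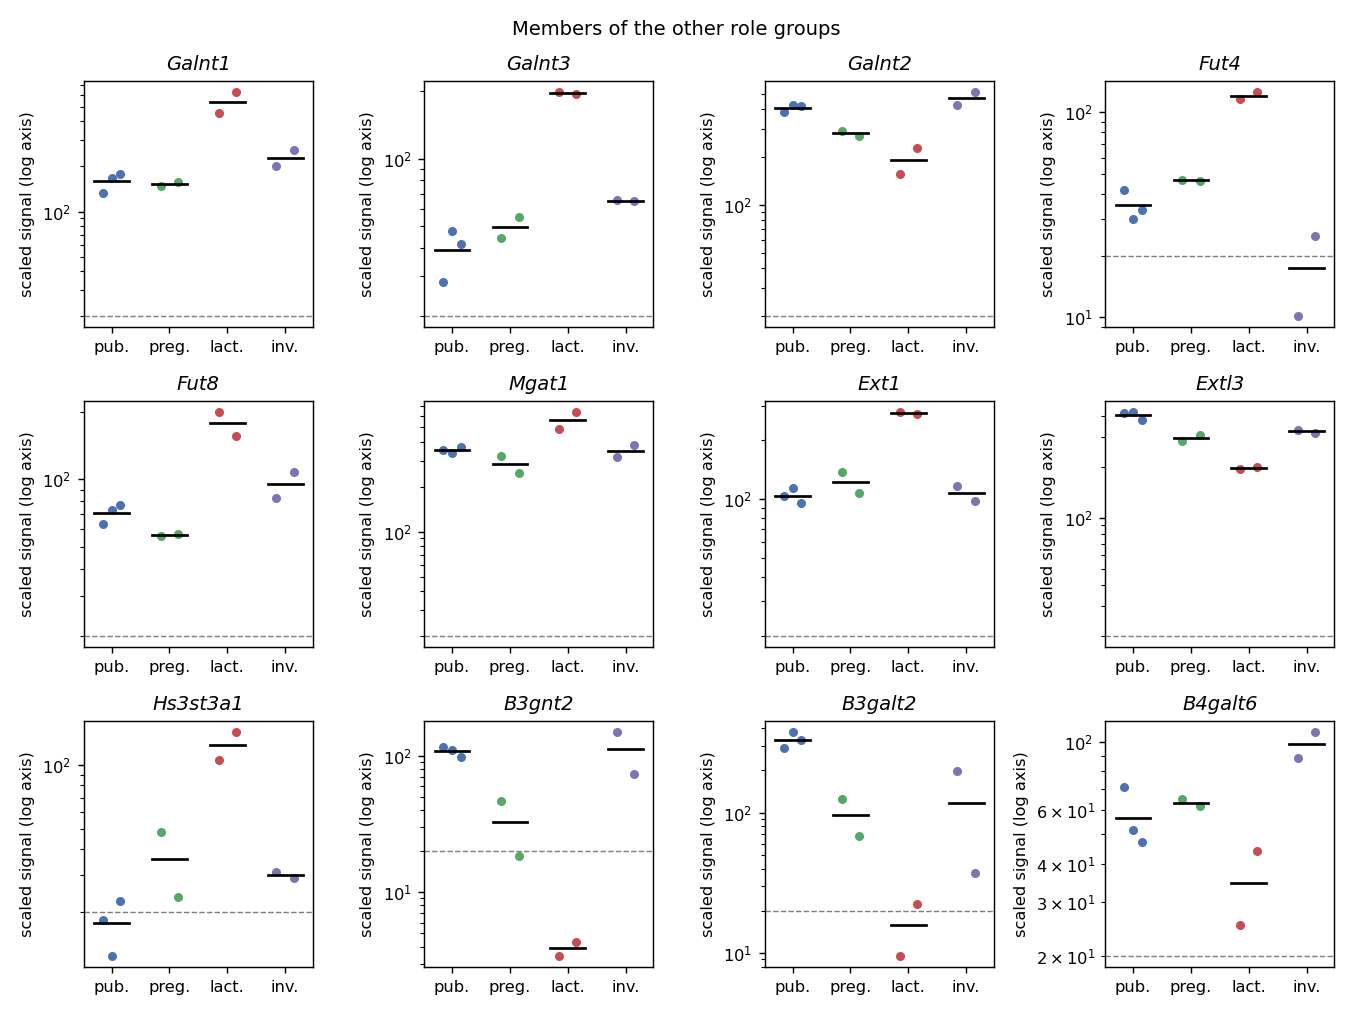
Scaled signal (log axis) of 12 members of the other role groups at puberty (pub., 3 arrays), pregnancy (preg., 2), lactation (lact., 2) and involution (inv., 2). Points are arrays, black lines stage means and the dashed line the floor of 20. Lactation is the highest stage of Galnt1, Galnt3, Fut4, Fut8, Mgat1, Ext1 and Hs3st3a1 and the lowest of Galnt2, Extl3, B3gnt2, B3galt2 and B4galt6.

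At pregnancy against puberty, 0 of the 47 members rose by limma, where 6.2% of all probe sets rose, and 5 fell (10.6%), where 5.22% fell. The median change was -0.16 over the members and 0 over all probe sets. The 5 falls were those of St3gal6 (-1.72, SE 0.28, adjusted p = 0.00652), B3gnt2 (-1.82, SE 0.40, adjusted p = 0.0213), Galnt6 (-0.76, SE 0.17, adjusted p = 0.0216), St6galnac5 (-1.03, SE 0.24, adjusted p = 0.0258) and Extl3 (-0.46, SE 0.12, adjusted p = 0.0397). In each of them the 3 puberty arrays lay above both pregnancy arrays. With no floor, Galnt6, St6galnac5 and Extl3 did not pass (adjusted p = 0.108, 0.182 and 0.0565), nor with the replicate block (0.0629, 0.0941 and 0.108). Without pregnancy array 2, 0 of the 5 passed, with adjusted p of 0.0806 for St3gal6, 0.19 for B3gnt2, 0.0858 for Galnt6, 0.195 for St6galnac5 and 0.103 for Extl3. The dimmer B3gnt2 probe set changed by 0.32 at pregnancy and did not pass (adjusted p = 0.634), and the fall of B3gnt2 was also lost with the mean of its probe sets (adjusted p = 0.0699), a floor of 50 (0.0778) or no filter (0.0799). St3gal6 passed under every other alternative (0.00223 to 0.0806 over 21). Galnt6 and Extl3 were also lost without pregnancy array 1 (0.128 and 0.156), as was St6galnac5 (0.0997). Extl3 was lost without puberty array 1, 2 or 3 (0.112, 0.128 and 0.0639). St6galnac5 was lost without puberty array 2 or 3 (0.076 and 0.0752) or lactation array 1 or 2 (0.0696 and 0.0725), and B3gnt2 without puberty array 1, 2 or 3 (0.0635, 0.0618 and 0.0522) or lactation array 1 or 2 (0.0807 and 0.0849). Over all alternatives the adjusted p ran from 0.00424 to 0.19 for B3gnt2, 0.0201 to 1 for Galnt6, 0.00377 to 0.722 for St6galnac5 and 0.00101 to 0.156 for Extl3.

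Markers of several cell types moved with the stages, and in whole tissue fewer cells of a type and less RNA per cell cannot be told apart. At pregnancy against puberty, 10 of 10 tested skeletal muscle markers and 7 of 8 T cell markers fell, and their summed signals were 150.4 to 1042 and 895.3 to 1179 at pregnancy, against 8248 to 20400 and 1649 to 2102 at puberty. In the same comparison 3 of 8 adipocyte, 2 of 7 B cell and 1 of 11 epithelial markers fell. In turn, 5 of 8 milk protein genes and 5 of 11 epithelial markers rose. Over all probe sets tested, 6.2% rose and 5.22% fell in it. At lactation against pregnancy, 5 of 8 milk protein genes rose (summed signal 140400 to 175700 at lactation, against 27170 to 29870 at pregnancy). In that step 8 of 9 stroma, 6 of 8 endothelium, 6 of 8 adipocyte and 5 of 7 macrophage markers fell. So did 5 of 8 T cell, 3 of 7 B cell and 7 of 11 luminal and basal epithelium markers. The adipocyte marker Lpl and the epithelial marker Elf5 rose. Over all probe sets tested, 21.6% rose and 19.7% fell in that step. The summed stroma signal was 4131 to 5096 at lactation and 14390 to 15720 at pregnancy. At involution against lactation, 8 of 8 T cell markers rose (1334 to 1355 at involution, 221.2 to 307.7 at lactation) and 6 of 7 macrophage markers (7072 to 8729 at involution, 1671 to 2656 at lactation). So did 7 of 8 adipocyte markers (14410 to 15790 at involution, 5950 to 6027 at lactation), 7 of 7 B cell markers, 6 of 9 stroma, 6 of 8 endothelium and 4 of 11 epithelial markers, while 5 of 8 milk protein genes fell (22530 to 28500 at involution, 140400 to 175700 at lactation). Of the endothelium and epithelial markers, 1 of each fell at involution. Over all probe sets tested, 22.1% rose and 23% fell there. The part of these shifts in the changes of St8sia4, Galnt2, B3galt2, St3gal6 and the other members was not tested. Arrays of the same stage correlated at 0.947 to 0.975 over the tested probe sets and arrays of different stages at 0.724 to 0.935.

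The enzymes depend on activated donors and on carriers that bring them into the Golgi, and these were read from lists. Of 31 listed genes of donor synthesis, 18 were measured and 17 tested, and at lactation against pregnancy 6 rose and 3 fell, where 21.6% of all probe sets rose and 19.7% fell. At involution against lactation 4 rose and 6 fell, where 22.1% of all probe sets rose and 23% fell. Nans, which condenses the precursor of sialic acid, had 150, 139 and 126 at puberty, 203 and 234 at pregnancy, 1404 and 1108 at lactation, and 107 and 98.7 at involution (log2 2.52 at lactation, SE 0.17, adjusted p = 2.93e-05, and -3.60 at involution, adjusted p = 9.31e-06). Cmas, which charges sialic acid onto CMP, had 155, 179 and 180 at puberty, 345 and 307 at pregnancy, 637 and 611 at lactation, and 236 and 197 at involution. Cmas rose at pregnancy (0.93, SE 0.14, adjusted p = 0.00508) and again at lactation (0.94, SE 0.15, adjusted p = 0.00178), and changed by -1.53 at involution (adjusted p = 0.000123). Gne, the entry enzyme of sialic acid synthesis, chosen after its values were seen, averaged 124 ± 13.8, 223 ± 41.4, 360 ± 23.9 and 131 ± 29.3 from puberty to involution (SD, n = 3, 2, 2 and 2) and rose at both steps (adjusted p = 0.0268 and 0.0294).

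Genes for some other donors were lower at lactation. Ugdh, which makes the UDP-glucuronate needed for heparan and chondroitin sulfate, had 542, 628 and 659 at puberty, 416 and 445 at pregnancy, 102 and 106 at lactation, and 558 and 480 at involution. Its lactation arrays were the lowest, with changes of -2.05 from pregnancy (SE 0.15, adjusted p = 3.41e-05) and 2.31 at involution (SE 0.15, adjusted p = 1.5e-05). Pmm1, a phosphomannomutase of the GDP-mannose path, had 143, 161 and 205 at puberty, 124 and 98.4 at pregnancy, 18.5 and 20.7 at lactation, and 146 and 194 at involution. Lactation was at the floor on 1 array, and the change was -2.44 (SE 0.25, adjusted p = 0.000213). Pmm2 and Gmppb of the same path, chosen after their values were seen, did not pass. They changed by -0.67 and 0.36 (adjusted p = 0.391 and 0.686). Papss2, a maker of the sulfate donor, chosen after its values were seen, averaged 18.0 ± 3.60 at lactation and 32.0 ± 8.64 at pregnancy (SD, n = 2 each). This change did not pass (adjusted p = 0.124). Papss1 of the same list, also chosen after its values were seen, averaged 412 ± 2.80 and 409 ± 124 (SD, n = 2 each). Its change of 0.04 did not pass (adjusted p = 0.899).

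Of 13 listed nucleotide sugar and sulfate carriers, 7 were measured and 6 tested. At lactation against pregnancy 5 rose and 0 fell by limma, where 21.6% of all probe sets rose and 19.7% fell. Their median change was 1.21, against 0.07 over all probe sets. At involution against lactation 0 rose and 4 fell, where 22.1% of all probe sets rose and 23% fell. Slc35b2, which imports the sulfate donor PAPS, had 170, 171 and 188 at puberty, 309 and 355 at pregnancy, 834 and 720 at lactation, and 259 and 325 at involution. Slc35a2, the UDP-galactose carrier, had 33.1, 35.5 and 37.9 at puberty, 31.4 and 42.2 at pregnancy, 88.5 and 79.1 at lactation, and 36.8 and 28.0 at involution. In both, lactation stood above all other arrays (log2 1.23, SE 0.16, adjusted p = 0.000636 for Slc35b2, and 1.20, SE 0.25, adjusted p = 0.00514 for Slc35a2). Slc35b1, whose protein sits in the endoplasmic reticulum, rose by 2.17 (SE 0.15, adjusted p = 3.29e-05) and Slc35c2 by 1.26 (SE 0.19, adjusted p = 0.00113). Slc35a1, the CMP-sialic acid carrier, chosen after its values were seen, had 127 and 131 at lactation and 99.7 and 93.9 at pregnancy, and its change of 0.42 did not pass (SE 0.22, adjusted p = 0.168).

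**Figure D5:**
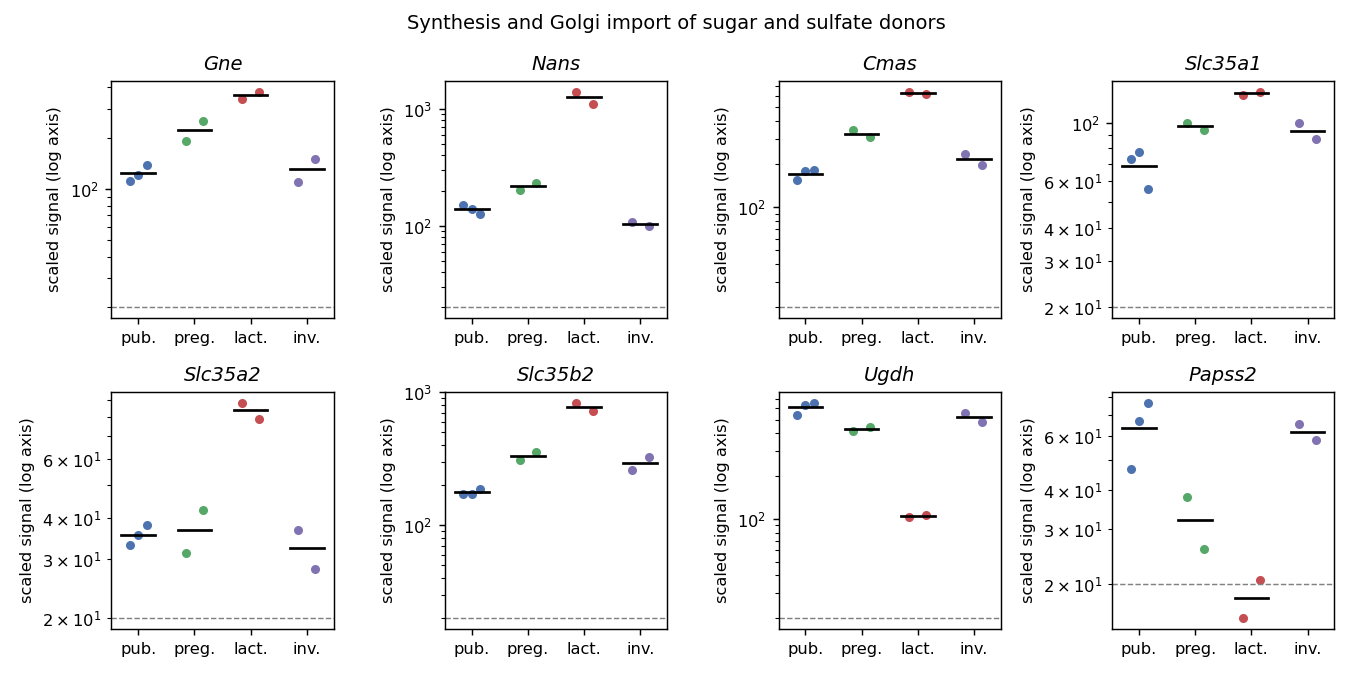
Scaled signal (log axis) of genes that make sugar or sulfate donors (Gne, Nans, Cmas, Ugdh, Papss2) or carry them (Slc35a1, Slc35a2, Slc35b2) at puberty (pub., 3 arrays), pregnancy (preg., 2), lactation (lact., 2) and involution (inv., 2). Points are arrays, black lines stage means and the dashed line the floor of 20. Lactation is the highest stage of the 3 sialic acid genes and the 3 carriers and the lowest of Ugdh and Papss2.

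Other Golgi glycan enzymes outside the symbol rule, 41 listed, 17 measured and 16 tested, gave 5 rises and 3 falls at lactation against pregnancy, where 21.6% of all probe sets rose and 19.7% fell, and 3 rises and 4 falls at involution against lactation, where 22.1% rose and 23% fell. A4galt, which makes the core of globo-series glycolipids, had 661 and 900 at lactation and 161 and 254 at pregnancy (log2 1.93, SE 0.38, adjusted p = 0.00401), and Chpf, a chondroitin polymerizing factor, had 530 and 523 at lactation and 177 and 157 at pregnancy (1.66, SE 0.21, adjusted p = 0.00054). Tpst1, a tyrosine sulfotransferase, had 49.8 and 18.2 at lactation and 184 and 168 at pregnancy (-2.48, SE 0.38, adjusted p = 0.00123), and Mfng, which elongates fucose on Notch, had 45.0 and 63.6 at lactation and 153 and 104 at pregnancy (-1.24, SE 0.28, adjusted p = 0.00765). At each of these 4 genes the lactation and pregnancy arrays did not overlap.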

How the data were processed

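RNA of 9 whole mammary glands at 4 stages was hybridized to MG-U74Av2 arrays. The values the authors deposited are linear intensities, which the submitters' processing notes credit to MAS5, version not stated. The filter and the normalization per gene of the methods are not in these values.

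Control probe sets (66 of 12488) were left out, and arrays, with deposited medians of 48.1 to 53.8, were multiplied by 0.948 to 1.06 so that their medians were equal. The log2 of these deposited and rescaled intensities was taken after raising those below 20 to that floor. Probe sets with a mean above 20 in at least 1 stage (9783) were tested with limma 3.58.1 in R 4.3.3 (lmFit, eBayes with a trend), by a moderated F test over the stages and 3 contrasts of consecutive stages. All 9 arrays shared 1 estimate of the spread, and p-values (two-sided for contrasts) were adjusted by Benjamini-Hochberg over all 9783, with a threshold of 0.05. The number of arrays, 2 or 3 per stage, limits the precision. Values were read with the package data.table (version 1.17.8) and plotted with pandas 2.3.3 and matplotlib 3.10.9.

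Symbols came from the platform annotation (10833 probe sets with 1 symbol, 396 with several, 1193 not listed), of which 10817 were matched to RefSeq genes of GRCm38.p6. No member's symbol changed. Values on every array were given for the 3 members of each role group with the smallest adjusted p of the F test among those that passed it. The same was done for the 4 largest called rises and falls per contrast. Up to 4 genes of each pathway list with the smallest adjusted p of that test were described. Of these, A4galt, Chpf, Tpst1 and Mfng have only their lactation and pregnancy arrays printed, and Slc35b1 and Slc35c2 only their changes. A printed signal is scaled but not floored, and a bound sets every signal under 20 to 20. The members, lists and rules were chosen with earlier results of these data known.

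Alternatives changed the scaling (none, upper quartile or quantile), the floor (none or 50, or 16 added in place of it), the filter (none or 100), the fit (robust, without a trend, with the replicate number as a block, or analysis of variance without moderation) and the probe sets (their mean), and left out each array.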

Additional observations from a re-analysis of the deposited data

How the results depend on the processing

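The counts of members past the F test (27), higher at lactation (17) and lower at involution (18) stayed within 1.5 times under every alternative. The leave-one-out settings are included in this. With all arrays kept, the counts ran from 21 to 35, 14 to 19 and 15 to 19. Members lower at pregnancy against puberty (5) became 2 with no floor, 2 with a floor of 50, 3 with log2(value + 16), 3 with no filter, 10 with robust fitting and 0 to 7 when single arrays were left out, 0 without pregnancy replicate 2. Members higher there (0) became 5 with robust fitting. Members lower at lactation against pregnancy (5) became 8 on the deposited scale, 8 with no floor, 3 with a floor of 50, 8 with log2(value + 16), 10 with robust fitting and 2 to 6 without single arrays. Members higher at involution against lactation (8) became 5 with a filter of 100, where fewer genes are tested, and 6 to 9 without single arrays. The cause of the other shifts was not tested. With the replicate block, 2 members were lower at pregnancy against puberty, and the other counts stayed within 1.5 times. The numbers do not pair the samples, which came from separate mice. Over 12 same-numbered pairs, the correlation of deviations from the stage means ran from -0.153 to 0.049.

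Of the 53 called changes, 26 passed under every alternative, 12 were lost only when an array was left out, 15 were lost under another alternative, and 0 turned their direction. The median change of all probe sets moved by under 0.1 on the log2 scale with the scaling, and that of the members at lactation ran from 0.11 on the deposited scale to 0.24 with the 75th percentile. Signals at the floor have no order, so low members such as B4galnt2, B3galnt1, Hs3st1 and Galnt6, whose calls a floor of 50 ended, are limited by signal over background.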
